A study of Mus musculus with 36 samples.

Results

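Imprinted genes, of which 37 were named for description, were followed in epiblast stem cells of the mouse (EpiSC), a pluripotent cell type close to the epiblast after implantation. Members were chosen by the gene symbol that the array annotation gives to a probe, and all of their probes were taken. Of the 37 genes, 34 had at least 1 probe and together had 79 of the 45281 probes on the array. H19, Snrpn and Zrsr1 had no probe under their symbol. Genes were sorted by the parental allele usually expressed in the mouse: 19 paternally expressed, 10 maternally expressed and 8 called context-dependent, which are imprinted in some tissues or transcripts or lie beside an imprinted gene.

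All 36 samples were EpiSC, grown per the labels in medium conditioned by mouse embryonic fibroblasts with bFGF and Activin, and then treated. Retinoic acid (RA) is made from vitamin A and makes such cells differentiate. Of the samples, 11 received it at 5 µM for 36 h together with 24 h of either a compound or the basal medium called Mock (schedule RA 36 h). Another 12 received the same dose of RA for 24 h and 36 h of a compound, Mock or fibroblast-conditioned medium, called CM (schedule RA 24 h). In the third schedule 13 samples had no RA but Mock for 36 h, with a compound, Mock or CM for 24 h. Each schedule held the same 10 compounds and 1 Mock array, which are 11 matched treatments. The compounds were 100 nM Rapamycin, 250 nM PF573228, 2 µM Dorsomorphin, 25 µM BAY 11-7082, 50 µM Forskolin, 10 µM BAPTA-AM, 500 pM Docetaxel, 50 nM Wortmannin, 2 µM Purmorphamine and 2 µM SU5402. The RA schedules thus differ in the time with a compound as well as in the time with RA. The labels do not say which agent came first or whether CM held bFGF and Activin, and a change after 36 h or 24 h means one with RA for that time. CM had 3 arrays, 1 in the RA 24 h schedule and 2 without RA. The labels do not say whether arrays came from separate cultures, so p-values measure the spread between these samples, which may be technical.

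An imprinted gene is expressed mainly from the copy inherited from one parent, because DNA methylation laid down in the egg or sperm marks one copy and is kept through the divisions of the embryo. Paternally expressed genes such as Igf2, Mest and Peg3 are often linked to growth of the embryo, and maternally expressed genes such as Cdkn1c, Phlda2 and Igf2r often restrain it. The genes lie in clusters in which 1 control region can govern several members. The probes do not tell the parental copies apart, so every value is the total RNA of a gene, and no value speaks of imprinting itself.

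Values are normalised log2 intensities. A probe was tested when it was detected (detection p below 0.05) on at least 3 arrays, and a difference passed when its p, adjusted over all 23999 tested probes by the Benjamini and Hochberg method in limma, was below 0.05. By this rule 53 probes of 28 members were tested, and each of these members is represented by its brightest probe. They were 13 paternally expressed, 7 maternally expressed and 8 context-dependent genes. Of the 28, 21 were detected on all 36 arrays. Peg10 was detected on 35 arrays, Asb4 on 30, Slc22a18 on 14, Rtl1 on 8, Kcnq1 on 5, Usp29 on 4 and Meg3 on 3. The other 6 members with probes, Sgce, Zim1, Nap1l5, Plagl1, Ascl2 and Magel2, were detected on at most 2 arrays and were not tested.

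Mean array signal was 336 to 692, higher without RA (551 ± 79.5, SD, n = 13) than with RA for 36 h (430 ± 46.6, n = 11) or 24 h (428 ± 65.0, n = 12), before quantile normalisation. The arrays lay on 6 slides, and only 1 slide held arrays both with RA (5 compounds, RA 36 h) and without (Mock), so slide and schedule are largely confounded. Epiblast markers were present on every array without RA, where all 8 were detected. With RA for 36 h 7 of the 8 fell and 1 rose, and Pou5f1, Utf1, Dnmt3b and Sox2 were still detected on all 11 arrays. Pou5f1 fell by 5.14 and Nanog fell by 5.45 log2 units. Of 8 neural ectoderm markers 7 rose. Of 5 tested fibroblast markers 4 rose and 1 fell, of 11 extraembryonic endoderm markers 4 rose and 2 fell, of 5 trophoblast markers 2 rose and none fell, and of 5 mesoderm markers 2 rose and 1 fell. In log2 units the summed level of the neural markers was 10.11 to 11.18 without RA and 12.49 to 13.17 with RA for 36 h, and that of the fibroblast markers 9.60 to 10.45 and 9.99 to 10.95. For the extraembryonic endoderm markers it was 9.39 to 9.94 and 11.24 to 11.66, and for the mesoderm markers 7.87 to 8.25 and 8.47 to 9.04. The trophoblast markers gave 9.63 to 10.44 and 10.24 to 10.73. The part of these cell states in the changes of imprinted genes was not tested. In bulk RNA, more cells with a transcript and more transcript per cell cannot be told apart.

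With RA for 36 h, more of the 28 tested members rose than fell: 16 were higher than without RA, 5 were lower and 7 did not pass. The members were chosen with earlier results of these data known. Among all 12367 tested genes 59.2% passed in this comparison, 28.4% higher and 30.8% lower. The median change was 0.42 on the log2 scale over the 28 members and -0.03 over all genes. Over 17 other imprinted genes, of which 7 rose and 6 fell, the median was -0.11. For 22 relatives of the members that are not imprinted, of which 12 rose and 3 fell, it was 0.21. By allele class, 9 of 13 paternally expressed genes rose and 1 fell, 2 of 7 maternally expressed genes rose and 3 fell, and 5 of 8 context-dependent genes rose and 1 fell. The class medians were 0.51, -0.11 and 0.42. Several maternally expressed genes were weakly detected: Meg3, which fell, on 3 arrays, Kcnq1 on 5 and Slc22a18, which rose, on 14. With slide as a fixed term Slc22a18 was -0.46 and did not pass. The paternally expressed gene that fell, Rtl1, was detected on 8 arrays. Changes of at least 1 log2 unit were seen in 6 members, Mest, Ndn, Igf2, Peg10, Cdkn1c and Phlda2, against 10.2% of all genes. For 9 members the 11 matched arrays with RA did not overlap the 11 without, against 20.8% of all genes: the same 6, and Grb10, Cd81 and Gnas. Within the slide that held both schedules 8 of the 28 passed, with 5 arrays against 1, where 15% of all genes passed. With slide as a fixed term 6 passed, where 12.9% of all genes passed: Mest, Ndn, Cdkn1c, Phlda2, Cd81 and Gnas. In the authors' deposited log2 values all 21 members kept their call.

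**Figure D1:**
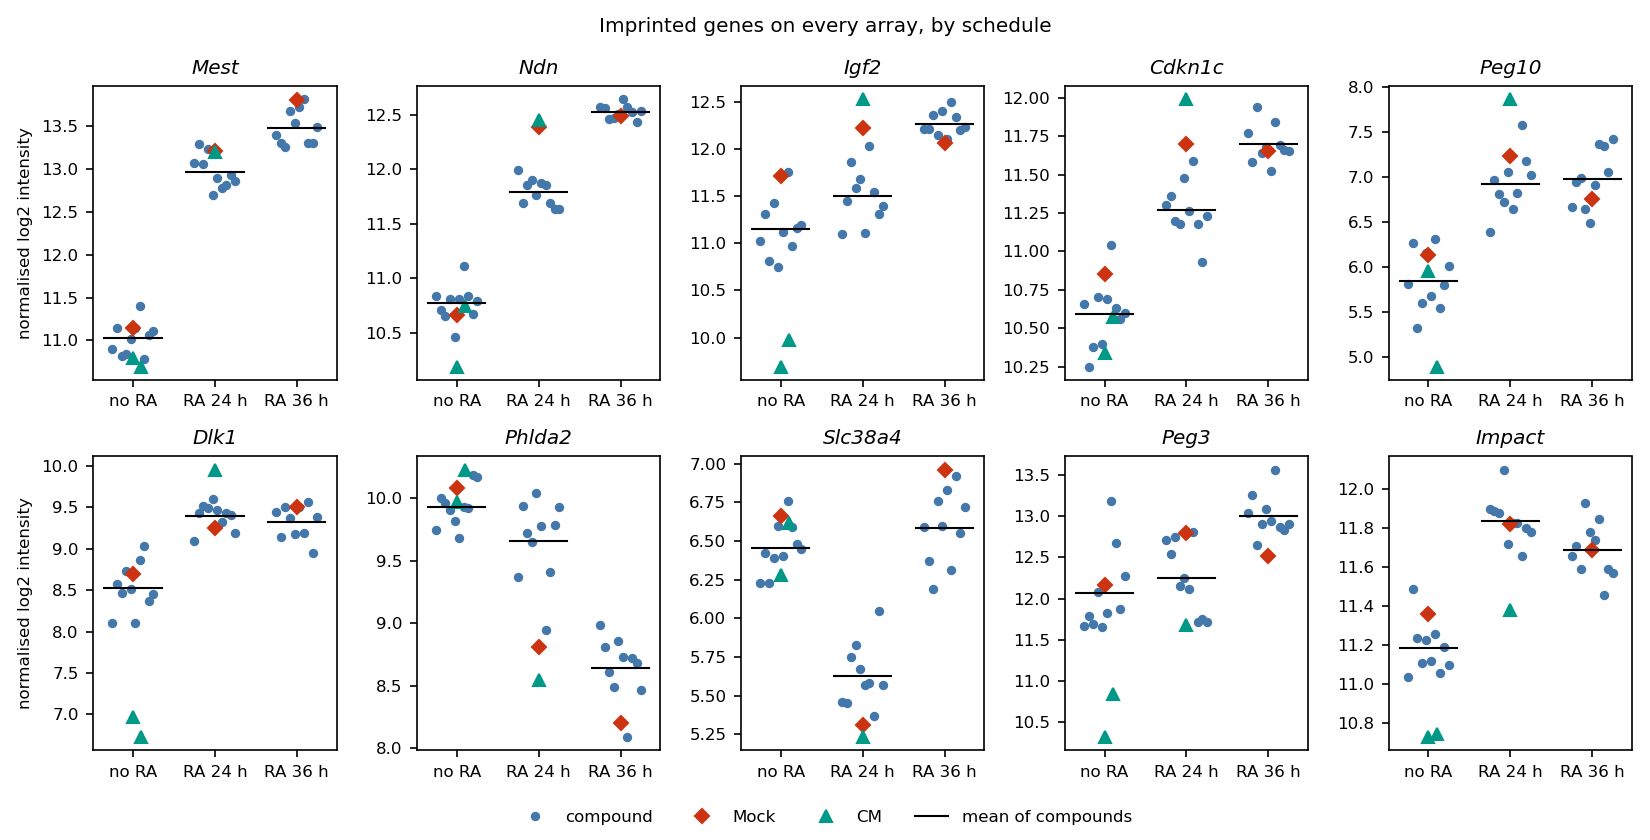
Normalised log2 intensity (vertical axis) of 10 imprinted genes on each array, by schedule (horizontal axis); circles are the 10 compounds, diamonds Mock, triangles CM, and the line is the mean of the compounds. Mest and Ndn sit above the arrays without RA in both RA schedules and Cdkn1c with RA for 36 h, Phlda2 falls with RA for 36 h, and Slc38a4 is lowest with RA for 24 h.

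Promoters are shown for the members with the largest rises and the largest fall, Mest, Ndn and Phlda2, and for Peg3, which fell with CM. They are the 300 bases around a transcription start (250 before and 50 after) on the strand of the gene, from RefSeq on GRCm38.p6, the one with most CpG dinucleotides where a gene has several. Capitals mark TGCCGC or its reverse complement GCGGCA, the core of the sequence that ZFP57, the zinc finger protein that keeps imprints, binds when it is methylated.
Mest, chr6:30737800-30738099, plus strand: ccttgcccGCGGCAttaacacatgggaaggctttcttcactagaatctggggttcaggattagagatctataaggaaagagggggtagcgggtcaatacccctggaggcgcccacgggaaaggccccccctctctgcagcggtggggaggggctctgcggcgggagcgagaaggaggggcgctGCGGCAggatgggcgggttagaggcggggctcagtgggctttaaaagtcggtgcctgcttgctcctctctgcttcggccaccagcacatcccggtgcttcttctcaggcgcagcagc
Ndn, chr7:62348027-62348326, plus strand: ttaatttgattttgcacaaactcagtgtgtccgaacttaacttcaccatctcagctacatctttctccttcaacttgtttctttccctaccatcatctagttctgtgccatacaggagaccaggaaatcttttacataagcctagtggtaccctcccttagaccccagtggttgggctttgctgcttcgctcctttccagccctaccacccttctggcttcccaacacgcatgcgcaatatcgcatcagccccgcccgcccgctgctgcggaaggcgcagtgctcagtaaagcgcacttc
Phlda2, chr7:143502475-143502774, minus strand: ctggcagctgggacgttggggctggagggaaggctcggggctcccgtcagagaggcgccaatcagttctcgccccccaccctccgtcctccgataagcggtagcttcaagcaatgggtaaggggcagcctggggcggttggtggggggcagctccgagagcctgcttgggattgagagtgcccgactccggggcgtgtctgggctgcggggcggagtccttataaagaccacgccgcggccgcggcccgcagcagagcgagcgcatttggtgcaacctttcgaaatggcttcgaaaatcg
Peg3, chr7:6730370-6730669, minus strand: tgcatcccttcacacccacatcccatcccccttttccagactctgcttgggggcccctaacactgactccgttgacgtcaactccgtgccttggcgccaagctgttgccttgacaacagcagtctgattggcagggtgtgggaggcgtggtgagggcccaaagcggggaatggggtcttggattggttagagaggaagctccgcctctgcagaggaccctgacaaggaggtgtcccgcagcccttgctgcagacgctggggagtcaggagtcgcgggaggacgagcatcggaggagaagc
The Mest window holds 2 copies of the hexamer and 17 CpG. The windows of Ndn, Phlda2 and Peg3 hold none, with 11, 26 and 13 CpG. Of the 37 members 30 have a promoter in the RefSeq table, and in 9 of these (30.0%) the window with most CpG contains the hexamer on either strand, against 12.2% of all 27025 genes. The other 8 are Copg2, Grb10, Meg3, Nap1l5, Nnat, Plagl1, Snrpn and Zim1. The members' windows also have more CpG, a median of 17.0 against 8.0 over all genes, and these shares are descriptions with no test. The Peg3 and Usp29 windows run in opposite directions over 263 shared bases, yet Peg3 was detected on all arrays and Usp29 on 4.

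Mest, a paternally expressed gene for a hydrolase-like protein of mesodermal tissues, showed the largest change. Without RA the 11 matched arrays lay between 10.78 and 11.40 with a median of 11.06. With RA for 24 h they lay between 12.70 and 13.29 (median 12.93) and with RA for 36 h between 13.25 and 13.81 (median 13.49). Every array with RA was thus above every array without. The change was 2.50 ± 0.08 (SE) log2 units after 36 h, 5.65-fold (adjusted p = 2.58e-19), and 2.00 ± 0.08 after 24 h, 4.01-fold (adjusted p = 1.34e-17). Its neighbour on chromosome 6, Copg2, which codes for a coat protein of Golgi vesicles and overlaps the end of Mest, did not pass in either comparison (-0.19 ± 0.09 and 0.02 ± 0.09).

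Ndn (necdin) codes for a growth-suppressing protein of the MAGE family that is abundant in postmitotic neurons. Its level was 10.46 to 11.11 without RA (median 10.79), 11.63 to 12.39 with RA for 24 h (median 11.85) and 12.43 to 12.64 with RA for 36 h (median 12.52). The 3 schedules did not overlap on any matched array. Ndn rose 3.51-fold after 36 h (1.81 ± 0.09, adjusted p = 2.62e-15) and 2.26-fold after 24 h (1.18 ± 0.09, adjusted p = 1.23e-11). In the same domain of chromosome 7, Mkrn3, a ring finger gene, rose by less (0.47 ± 0.09 and 0.51 ± 0.09), and Magel2 was detected on 2 of 36 arrays. Ube3a, a ubiquitin ligase gene imprinted in neurons, fell by 0.48 ± 0.12 and 0.84 ± 0.12. Snurf, which was not chosen by the rule but shares its transcript with Snrpn, was named after its values were seen. Its brightest probe was 13.71 to 13.98 without RA, 12.55 to 13.42 with RA for 24 h and 12.38 to 12.63 with RA for 36 h. All 4 of its probes fell in both comparisons, the brightest by 1.45 ± 0.10 (adjusted p = 2.68e-12) and 0.76 ± 0.10 (adjusted p = 3.05e-07), so transcripts of 1 domain moved in opposite directions.

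Igf2 codes for an insulin-like growth factor of the embryo. Matched arrays gave 10.75 to 11.76 without RA (median 11.16), 11.10 to 12.23 with RA for 24 h (median 11.55) and 12.07 to 12.50 with RA for 36 h (median 12.21). Only the 36 h arrays cleared the range without RA. The change was 1.18 ± 0.18 after 36 h, 2.26-fold (adjusted p = 2.51e-06), and 0.62 ± 0.17 after 24 h (adjusted p = 0.00277). The 24 h change was 0.37 (adjusted p = 0.00441) without the CM arrays. Between the Mock arrays alone the 36 h difference was 0.35, the smallest of the 11 matched treatments, and within the slide that held both schedules it was 0.55 (adjusted p = 0.0957). Igf2r, the maternally expressed receptor that clears IGF2, did not pass (-0.11 ± 0.06 and 0.06 ± 0.06), although its second probe fell by 0.39 ± 0.09 after 36 h (adjusted p = 0.000359).

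Peg10, a gene derived from a retrotransposon and needed for the placenta, had levels of 5.33 to 6.31 without RA (median 5.81), 6.39 to 7.58 with RA for 24 h (median 6.97) and 6.49 to 7.42 with RA for 36 h (median 6.94). Neither group with RA overlapped the group without. The rises were 1.16 ± 0.15 (adjusted p = 3.58e-07) and 1.22 ± 0.15 (adjusted p = 8.52e-08). In the authors' deposited log2 values the rises were 0.24 and 0.26 and passed too. With slide as a fixed term the 36 h rise was 1.10 and did not pass (adjusted p = 0.370). Sgce, which shares the Peg10 promoter region and codes for a sarcoglycan, was detected on no array. Its maternally expressed neighbour Asb4 fell by 0.51 ± 0.13 after 36 h (adjusted p = 0.00191).

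Dlk1 codes for a membrane protein of the Notch ligand family found on many progenitor cells. Without RA it lay between 8.10 and 9.04 (median 8.51), with RA for 24 h between 9.10 and 9.60 (median 9.43) and with RA for 36 h between 8.95 and 9.57 (median 9.39). The lowest 36 h arrays reached into the range without RA, and the 24 h arrays did not. Dlk1 rose by 1.09 ± 0.16 after 24 h (adjusted p = 1.74e-06) and by 0.92 ± 0.17 after 36 h (adjusted p = 3.27e-05). The 24 h estimate includes the CM arrays, where Dlk1 was 6.97 and 6.73 without RA and 9.95 with RA. In the authors' deposited log2 values the 24 h rise was 0.59 and the 36 h rise 0.51, and both passed. Other genes of the domain were close to background: Meg3, a maternal noncoding RNA, was detected on 3 arrays, and Rtl1, a retrotransposon-derived gene expressed from the paternal copy, on 8. At that level Meg3 fell by 0.40 and Rtl1 fell by 0.35 after 36 h, and both are among the 5 members counted as lower.

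Peg3, a zinc finger gene linked to growth and maternal behaviour, was 11.65 to 13.18 without RA (median 11.87), 11.72 to 12.81 with RA for 24 h (median 12.25) and 12.51 to 13.56 with RA for 36 h (median 12.90). All groups overlapped, and Docetaxel gave the highest array in each. Peg3 rose after 36 h (0.93 ± 0.16, adjusted p = 1.39e-05) and did not pass after 24 h (0.32 ± 0.15, adjusted p = 0.0710). Impact, a regulator of translation, rose in both (0.49 ± 0.05 and 0.64 ± 0.05), as did Kcnq1ot1, the long noncoding RNA of the Kcnq1 domain (0.51 ± 0.14 and 0.34 ± 0.13). With slide as a fixed term the 36 h changes were 0.31 for Impact and 0.02 for Kcnq1ot1, and neither passed. Within the slide that held both schedules they were 0.28 and 0.15. Between the Mock arrays alone Kcnq1ot1 differed by -0.23 after 36 h, and its 24 h call was lost under 9 of 20 alternatives.

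Maternally expressed genes of the Kcnq1 domain on chromosome 7 went both ways. Cdkn1c codes for p57, an inhibitor of the cell cycle. It was 10.25 to 11.04 without RA (median 10.63), 10.93 to 11.70 with RA for 24 h (median 11.26) and 11.52 to 11.94 with RA for 36 h (median 11.66). The 36 h arrays were all above those without RA. The rise was 1.12 ± 0.09 after 36 h (adjusted p = 2.75e-11) and 0.78 ± 0.09 after 24 h (adjusted p = 1.51e-08).

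Phlda2, a gene that limits placental growth and lies near Cdkn1c in the same domain, was the member that fell furthest. Levels were 9.68 to 10.19 without RA (median 9.93), 8.81 to 10.04 with RA for 24 h (median 9.72) and 8.09 to 8.99 with RA for 36 h (median 8.68). Every 36 h array was below every array without RA, while the median 24 h array was within their range. Phlda2 fell 2.65-fold after 36 h (-1.41 ± 0.13, adjusted p = 3.42e-10) and 1.41-fold after 24 h (-0.49 ± 0.12, adjusted p = 0.00123). With the 10 compounds only, the 24 h change was -0.27 (adjusted p = 0.0244). Between the Mock arrays alone it was -1.27, and 9 of the 11 matched treatments were lower. Slc22a18, a transporter gene between them, rose by 0.38 ± 0.10 and 0.79 ± 0.10 but was detected on 14 arrays, 1 of them without RA. Kcnq1, a potassium channel gene, was near background, and Ascl2, a trophoblast regulator, was not tested.

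Among the context-dependent genes, Grb10, an adaptor that dampens insulin and growth factor signalling, rose by 0.82 ± 0.06 after 36 h (adjusted p = 1.09e-12) and by 0.82 ± 0.05 after 24 h (adjusted p = 5.86e-13). Its arrays were 13.36 to 13.70 without RA and 14.20 to 14.44 with RA for 36 h. Cd81, a tetraspanin gene, rose by 0.63 ± 0.06 and 0.26 ± 0.05, Gnas, the stimulatory G protein gene, by 0.54 ± 0.07 and 0.26 ± 0.07, Blcap, an apoptosis-linked gene that hosts Nnat in an intron, by 0.41 ± 0.07 and 0.25 ± 0.07, and Ppp1r9a, a scaffold gene of neurons, by 0.44 ± 0.10 and 0.69 ± 0.09. Nnat, a small membrane protein gene of neural tissue, did not pass on its brightest probe (0.01 ± 0.11 and -0.03 ± 0.11). Tssc4 did not pass either (0.05 ± 0.10 and -0.05 ± 0.10).

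**Figure D2:**
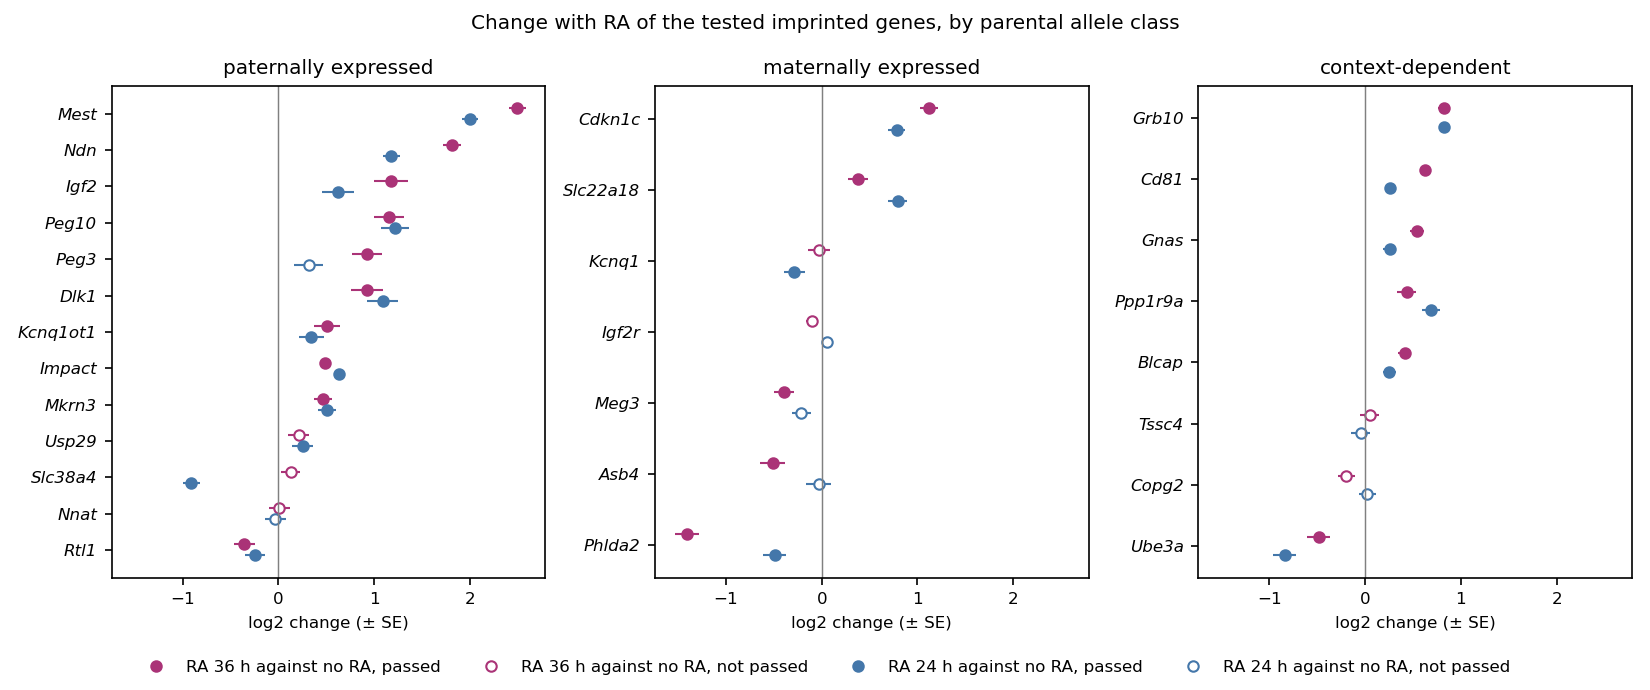
Log2 change (horizontal axis, with SE) of the 28 tested members for RA 36 h and RA 24 h against no RA, in panels by allele class; filled points passed. Mest at 2.50 and Ndn at 1.81 lead the paternally expressed genes, and the maternally expressed genes run from Cdkn1c at 1.12 to Phlda2 at -1.41.

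With RA for 24 h, 16 members rose, 5 fell and 7 did not pass, while 62.9% of all genes passed, 30.9% higher and 32% lower. Among the risers Usp29 was detected on 4 arrays, 0 of them without RA, and lost its call under 10 of 19 alternatives. Among the fallers Kcnq1 was detected on 5 arrays and Rtl1 on 8, and Rtl1 lost its call under 15 of 19. All of these were near background. Changes of at least 1 log2 unit were found for Mest, Peg10, Ndn and Dlk1 (7.38% of all genes), and 8 members did not overlap (15.6% of all genes). The Dlk1 estimate of 1.09 includes the CM arrays, on which Dlk1 lay below the matched arrays without RA and above them with RA. The arrays without RA serve both comparisons.

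RA 24 h was also set against RA 36 h directly. In this comparison 6 members were higher with the shorter RA, 9 were lower and 13 did not pass, against 40.9% of all genes that passed, 22.7% higher and 18.2% lower. Of the 6 higher, Ppp1r9a lost its call under 10 of 19 alternatives, Impact under 7 and Igf2r under 6. Of the 9 lower, Ube3a lost its call under 5 of 19 and Igf2 under 1, slide as a random block (adjusted p = 0.110). The largest difference, and the only one of at least 1 log2 unit among the 28 (2.03% of all genes), was that of Slc38a4, an amino acid transporter gene expressed from the paternal copy. Slc38a4 was 6.23 to 6.76 without RA (median 6.45), 5.31 to 6.05 with RA for 24 h (median 5.57) and 6.19 to 6.96 with RA for 36 h (median 6.60). Its 24 h arrays lay below all others, and those of the other schedules overlapped. It was lower with RA for 24 h than for 36 h by -1.04 ± 0.10 (adjusted p = 1.72e-08) and than without RA by -0.91 ± 0.09 (adjusted p = 2.67e-09). RA for 36 h against no RA gave 0.13 ± 0.10 (adjusted p = 0.263). In the authors' deposited log2 values the first of these differences was -0.17 and the second -0.13, and both passed.

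Phlda2 was 0.91 ± 0.13 higher with RA for 24 h than for 36 h (adjusted p = 4.11e-06). The members that were lower included Ndn (-0.63 ± 0.09, adjusted p = 8.59e-06), Peg3 (-0.61 ± 0.16, adjusted p = 0.00323), Igf2 (-0.56 ± 0.18, adjusted p = 0.0155), Mest (-0.49 ± 0.08, adjusted p = 4.70e-05) and Cdkn1c (-0.34 ± 0.09, adjusted p = 0.00439). Slc38a4 and Ndn were the 2 members whose arrays did not overlap between the RA schedules, against 3.21% of all genes. These schedules were on separate slides, and slide cannot be told apart from schedule in this comparison.

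No comparison of a compound with Mock passed for any member. In the 10 comparisons of a compound with Mock over the 3 schedules, limma called 0 of the 28 members, and between 0 and 3 members per compound (0% to 10.7%) had an unadjusted p below 0.05, against 4.4% to 9.41% of all genes. Among all 12367 genes Docetaxel changed 11 (0.0889%), and the other 9 compounds 0. The mean differences of members from Mock ran from -0.56 (Igf2 with Rapamycin) to 0.69 (Peg3 with Docetaxel), with a smallest adjusted p of 0.498. A compound has 3 arrays and the Mock it is set against also has 3, so small differences could not be detected. The mean of all compounds against Mock gave 0 called members and 1 with an unadjusted p below 0.05, with Igf2 at -0.37 and Phlda2 at 0.38 as the extremes. Whether a compound acted differently with RA than without was tested for each of the 10, and 0 members passed, with 0 to 4 below 0.05 unadjusted (0% to 14.3%, against 4.5% to 8.72% of all genes). Among all genes 0.00809% passed for Forskolin and 0 for the others.

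In the RA 24 h schedule the Mock array lay outside the range of the compound arrays for 13 of the 28 members, against 6 in the RA 36 h schedule. The share of all genes was not counted, so the counts cannot be called particular to imprinted genes. The 13 include genes near background, Rtl1 (4.63 against 4.64 to 5.51) and Slc22a18 (4.87 against 4.97 to 5.87). Ndn was 12.39 with Mock and 11.63 to 11.99 with compounds, Igf2 was 12.23 against 11.10 to 12.03, Cdkn1c was 11.70 against 10.93 to 11.59, and Phlda2 was 8.81 against 8.95 to 10.04. For 12 of the 13 the Mock array lay on the side of the mean of the 36 h compound arrays. This direction was not counted over all genes either, and the same 1 Mock array serves every gene. The exception among the 13 was Slc38a4, at 5.31 with Mock and 5.37 to 6.05 with compounds, away from the 36 h arrays. With RA for 36 h, Mock was within the range of the compounds for Ndn (12.49 in 12.43 to 12.64), Cdkn1c (11.65 in 11.52 to 11.94) and Phlda2 (8.20 in 8.09 to 8.99), and just below it for Igf2 (12.07 against 12.11 to 12.50). The difference of the mean compound effect between the RA schedules passed for 0 members (smallest adjusted p = 0.291, 4 below 0.05 unadjusted) and for 0.186% of all genes, and it rests on 1 Mock array per schedule.

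Conditioned medium went with lower Peg3 and Impact. CM changed 2 of the 28 members against Mock, where 3.37% of all genes passed. Peg3 was 10.32 and 10.84 on the CM arrays without RA and 11.68 on the CM array with RA for 24 h, against 12.17, 12.80 and 12.51 on the Mock arrays without RA, with RA for 24 h and with RA for 36 h. The difference was -1.24 ± 0.31 (adjusted p = 0.0268). The second probe gave -1.22 ± 0.27 (adjusted p = 0.0136), and a dimmer probe did not pass (-1.06 ± 0.31, adjusted p = 0.0671). Impact was 10.73 and 10.75 without RA and 11.38 with RA for 24 h, against Mock values of 11.36, 11.82 and 11.69. It differed by -0.51 ± 0.11 (adjusted p = 0.00806). The second Impact probe, detected on all 36 arrays, did not pass (-0.54 ± 0.23, adjusted p = 0.229). Every CM array was below all matched arrays of its schedule for both genes.

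CM and Mock arrays shared no slide. Each CM array was therefore set against the 5 compound arrays of its own slide: Peg3 was lower by -1.46, -1.52 and -0.34, and Impact by -0.49, -0.40 and -0.40. Peg3 lost its call without the first CM array (-0.98, adjusted p = 0.179) or the second CM array (-1.24, adjusted p = 0.0700) of the schedule without RA, and without all arrays lacking RA (-0.65, adjusted p = 0.576) or all RA 36 h arrays (-1.49, adjusted p = 0.0667). Impact lost its call without the arrays lacking RA (-0.45, adjusted p = 0.298), those of the RA 24 h schedule (-0.55, adjusted p = 0.0676) or of the RA 36 h schedule (-0.53, adjusted p = 0.0651). With slide as a fixed term neither passed (Peg3 -1.38, adjusted p = 0.162, and Impact -0.43, adjusted p = 0.337). In the insulin-like growth factor axis 2 of 11 tested genes fell with CM, Irs2 (-1.04 ± 0.21) and Igfbp3 (-1.02 ± 0.22). Of the 17 other imprinted genes 1 rose, Calcr (0.87 ± 0.22), a calcitonin receptor gene, and 2 fell, Osbpl5 (-1.16 ± 0.30) and Dcn (-0.99 ± 0.24), which is also 1 of the 5 fibroblast markers. Of the 22 relatives Cd9 (-0.58 ± 0.13), a tetraspanin gene, fell, and of the 5 trophoblast markers Tfap2c (-1.37 ± 0.28), a transcription factor gene, fell. No other listed gene passed.

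**Figure D3:**
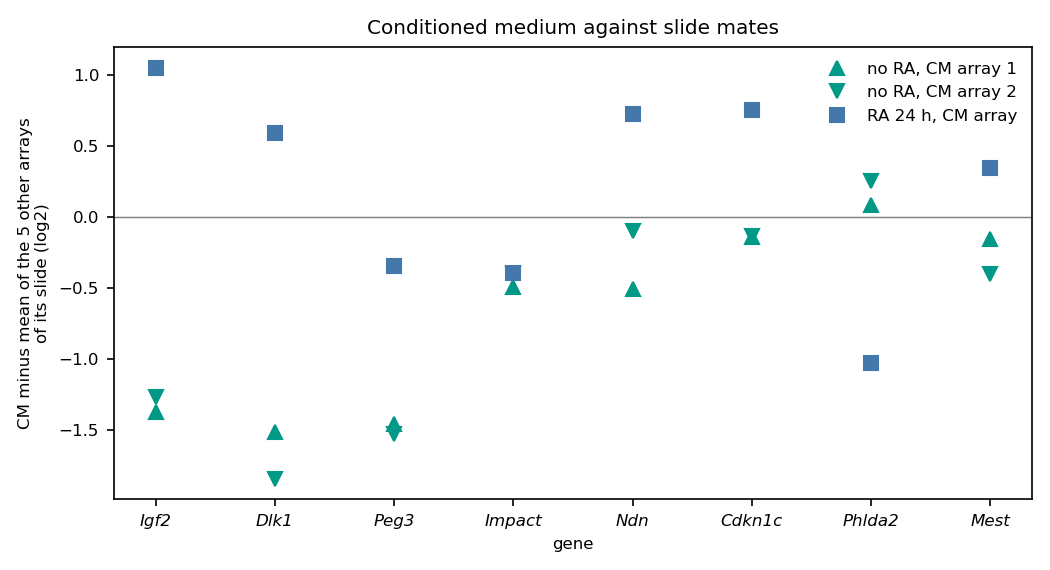
Log2 difference (vertical axis) between each CM array and the mean of the 5 other arrays of its slide, for 8 genes; triangles are the CM arrays without RA and squares the CM array with RA for 24 h. Igf2 and Dlk1 lie below 0 without RA and above 0 with RA, while Peg3 and Impact lie below 0 on all 3 arrays.

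Igf2 and Dlk1 had another pattern. Without RA, Igf2 was 9.69 and 9.97 with CM, below all 11 matched arrays, whose lowest was 10.75. With RA for 24 h it was 12.53 with CM, above all 11, whose highest was 12.23. Dlk1 was 6.97 and 6.73 with CM without RA, where the lowest matched array was 8.10, and 9.95 with CM and RA for 24 h, where the highest was 9.60. The test of this difference, a term for CM with RA for 24 h that was added after the values were seen, passed for 5 of 28 members and 4.11% of all genes. It gave 2.33 ± 0.32 for Igf2 (adjusted p = 5.95e-05) and 2.26 ± 0.28 for Dlk1 (adjusted p = 1.49e-05). In the authors' deposited log2 values the Dlk1 term was 1.06 (adjusted p = 0.000167). The RA side of the term rests on 1 CM array.

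For 14 members 25 more probes were tested, and 20 of them had the sign of the brightest probe for RA 36 h against no RA. Where the brightest passed, 13 of 21 others passed the same way and 1 the other way. For RA 24 h against no RA 17 of the 25 had the same sign, and 10 of 18 passed the same way and 3 the other way. For RA 24 h against RA 36 h 17 of 25 had the same sign, and 9 of 18 passed the same way and 0 the other way. Mest had 3 probes at 2.50, 2.29 and 2.27, Peg3 3 at 0.93, 0.84 and 0.74, and Grb10 3 at 0.82, 1.33 and 1.13. Gnas, a locus with several promoters and transcripts, had 7 probes that ran from 0.00 to 1.32, of which 4 passed. The opposite call was that of a Ube3a probe detected on 4 arrays (0.24 ± 0.10, adjusted p = 0.0428), and the other Ube3a probes, both detected on all arrays, did not pass (-0.04 ± 0.16 and -0.19 ± 0.12). The fall of Ube3a after 36 h was thus called on 1 of its 4 tested probes. With RA for 24 h, the same Ube3a probe and weakly detected probes of Slc22a18 (3 arrays) and Gnas (9 arrays) passed against the direction of the brightest. Both other probes of Nnat fell with RA for 24 h, by 0.49 ± 0.13 and 0.62 ± 0.15, where the brightest did not pass.

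**Figure D4:**
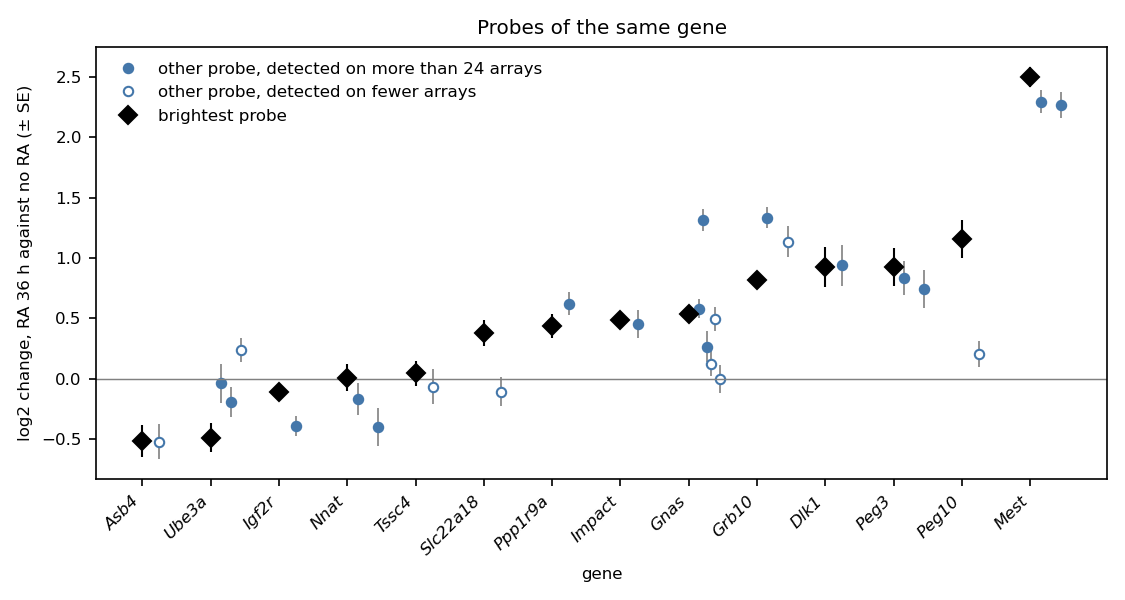
Log2 change (vertical axis, with SE) for RA 36 h against no RA of every tested probe of the 14 members with several; diamonds are the brightest probe, circles the others, open where detected on at most 24 arrays. The probes of Mest lie between 2.27 and 2.50, and those of Gnas spread from 0.00 to 1.32.

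Genes with a part in DNA methylation or in imprints, not all of which keep imprints, were a list of 18. It had 12 tested members, of which 3 rose and 6 fell with RA for 36 h. Dnmt3b, a de novo DNA methyltransferase that is also an epiblast marker, fell by 2.66 ± 0.12, Tet1, which oxidises methylcytosine, by 1.61 ± 0.12, and Setdb1, a histone H3 lysine 9 methyltransferase, by 1.03 ± 0.06. Trim28, the cofactor of ZFP57, fell by 0.51 ± 0.06. With RA for 24 h none of the 12 rose and 7 fell.

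Of 38 other imprinted genes 17 were tested, and 7 rose and 6 fell with RA for 36 h. The largest changes were those of Osbpl5 (2.39 ± 0.15), a lipid-binding protein gene at the edge of the Kcnq1 domain, Pde4d (-2.10 ± 0.19), a phosphodiesterase gene, Atp10a (-1.44 ± 0.11), a lipid flippase gene, and Dhcr7 (-1.11 ± 0.16), an enzyme of cholesterol synthesis. In the insulin-like growth factor axis 4 of 11 rose and 1 fell, led by Igfbp4 (2.01 ± 0.16), a binding protein, with Irs2, an adaptor of the receptor, at 0.78 ± 0.11. Of 22 tested relatives of the members that are not imprinted, 12 rose and 3 fell. Maged1, of the family of Ndn, rose by 1.43 ± 0.06, Phlda1 by 1.29 ± 0.21 where Phlda2 fell, and Mkrn1 fell by 1.51 ± 0.13 where Mkrn3 rose.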

How the data were processed

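Total RNA was measured on Illumina MouseWG-6 v2 bead arrays, 1 array per sample. The authors deposited raw intensities, of which 30.2% to 36.6% per array are below 0, so background had probably been subtracted, and a detection p-value beside each, per the file headers. They also deposited log2 values for which lumi was used with a variance-stabilising transform and robust splines, per the labels' design text, which served as an alternative.

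Intensities were normalised with neqc in limma 3.58.1 (R 4.3.3, offset 16). A linear model of schedule and treatment (22 residual degrees of freedom) with moderated variances gave all schedule, compound and CM contrasts, with p adjusted over the 23999 probes detected on at least 3 arrays. Ranges and SD of a schedule are over its 11 matched arrays, without CM. A fold is 2 raised to the log2 change. Interactions came from models with 11, 20 or 21 residual degrees of freedom. The procedure was tested on simulated data. The members and gene lists were chosen with earlier results of these data known. All 37 members are accounted for, and full values are given for those with a schedule change of at least 1 or a called treatment contrast, and up to 4 genes of each other list with the largest changes. The number of arrays limits the precision.

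Gene symbols came from the platform annotation: 34885 probes have 1 symbol, 18 have several and 10378 have none. Alternatives were the deposited log2 values, quantile normalisation without background correction, other filters, 1 probe per gene, slide as a random or fixed block, the slide with both schedules alone, and leaving out each treatment, schedule or CM array.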

Additional observations from a re-analysis of the deposited data

Results flagged for a closer look

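Conditioned medium went with different changes with RA for 24 h and without RA in 5 members, by a test of the difference itself that was added after the data were seen (limma, p adjusted over all probes). The difference, CM with RA for 24 h minus CM without RA, each relative to the matched arrays, was 2.33 ± 0.32 log2 units for Igf2 (adjusted p = 5.95e-05) and 2.26 ± 0.28 for Dlk1 (adjusted p = 1.49e-05). For Ndn it was 0.91 ± 0.23 (adjusted p = 0.0280), for Cdkn1c 0.84 ± 0.23 (adjusted p = 0.0388) and for Phlda2 -1.19 ± 0.33 (adjusted p = 0.0427). With the Mock arrays alone as the reference, Igf2 (2.19, adjusted p = 0.00918) and Dlk1 (2.55, adjusted p = 0.00299) passed, and Ndn (0.26), Cdkn1c (0.69) and Phlda2 (-0.28) did not. Without the first CM array lacking RA, Ndn (0.63, adjusted p = 0.263), Cdkn1c (0.72, adjusted p = 0.207) and Phlda2 (-1.32, adjusted p = 0.0769) did not pass. Without the second, Cdkn1c (0.96, adjusted p = 0.0559) and Phlda2 (-1.06, adjusted p = 0.179) did not pass. The second Dlk1 probe gave 2.27 ± 0.29. In the RA 24 h schedule the CM and Mock arrays lay on the same side of the compounds for Ndn (12.45 and 12.39), Cdkn1c (11.99 and 11.70) and Phlda2 (8.55 and 8.81). CM with RA is 1 array, so its own spread was not measured.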

How the results depend on the processing

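For RA 36 h against no RA 21 members passed, but 6 with slide as a fixed block and 8 within the slide that holds both schedules, where no RA is 1 Mock array. These 8 were Peg10, Mest, Grb10, Cdkn1c, Phlda2, Ndn, Mkrn3 and Gnas. Under the fixed block Slc22a18 changed sign (-0.46, adjusted p = 0.617). The RA 24 h contrasts could not be fitted with slide as a fixed block. For CM against Mock 2 members passed (3.37% of all genes), 0 with slide as a fixed block and 5 against the mean of the compounds. Leaving out RA 36 h gave 0, either CM array lacking RA gave 1, and the CM array with RA gave 5. Without the arrays lacking RA, which left 1 CM array, Peg3 was -0.65 and Impact -0.45. Shares of all genes are not given for these alternatives or for those of the CM difference with RA below. Their counts therefore cannot be called particular to imprinted genes. Among 23999 probes CM against its slide mates called 1417, and CM against Mock 632. The difference of the CM effect with RA passed for 5 members, and for 2 with Mock alone as the reference. Counted over all tested members, 3 passed without the first CM array lacking RA and 4 without the second. Not all of these were among the 5. Of the 5, only Igf2 and Dlk1 kept their call without the first array, and only Igf2, Dlk1 and Ndn without the second. Neither compound contrasts nor compound interactions were called under any setting run. Over 64 single-gene results, each under the alternatives that could be run for it (1216 values in all), 1101 kept their direction and side of the threshold, 114 kept only their direction and 1 reversed, and the cause was not tested. In the deposited log2 values 32 of the 64 were smaller by over 1.5 times and 1 lost its call. By replicate number no paired analysis was possible because the labels give the groups no shared numbers. The schedule contrasts are paired by treatment, which is a term of every model that compares schedules over all slides.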
